A study of Mus musculus with 20 samples.

Results

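The 36 genes described here encode the pore-forming or modifying subunits of voltage-gated potassium channels. They were taken from a fixed list of names, by family name and with no value in the rule, out of 21631 protein-coding genes on mouse chromosomes 1 to 19 and X (RefSeq annotation of GRCm38.p6, the assembly behind mm10). All 36 were found in the annotation. By structure they fall into 8 Kv1 (Shaker) genes, 4 Kv2 and Kv3 (Shab and Shaw) genes, 3 Kv4 (Shal) genes, 10 electrically silent modifiers, 8 genes of the EAG, ERG and ELK channels (Kv10 to Kv12) and 3 Kv7 (KCNQ) genes.

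Voltage-gated potassium channels open when a membrane depolarises, and the outward current repolarises the cell and sets how often and how regularly it fires. Kv1 channels sit mainly in axons and set the firing threshold, Kv3 channels allow fast repolarisation in fast-spiking cells, Kv4 channels carry the A-type current of dendrites, and Kv7 channels carry the M-current. Silent subunits form no channel of their own and change the gating of Kv2 channels that they join. H3K4me1 is found at enhancers and around promoters, H3K4me3 at gene starts and H3K27ac at active promoters and enhancers, while H3K27me3 is the mark of Polycomb repression. EGR1 is a zinc-finger transcription factor that neuronal activity induces.

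CUT&RUN maps where an antibody binds chromatin by cutting and sequencing the DNA beside it. It was done on nuclei sorted from whole brain of mice of 8 weeks with the genotype Sun1 f/f and Emx1Cre (+), which all 20 libraries share, so that controls without the alleles are not part of the comparison. Emx1 drives Cre in the lineage of the dorsal forebrain, and no source used here gives the gate that separated the nuclei. There were 10 groups of 2 libraries, from 5 antibodies (H3K4me1, H3K27ac, H3K4me3, EGR1 and H3K27me3) and 2 labelled cell types, excitatory neuron and inhibitory neuron. The labels do not say whether the 2 replicates came from different animals, so each p-value reflects only how far these libraries spread, which may be technical. The deposited peak lists hold no read counts, and the depth of each library is unknown.

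The labels were compared with defining markers first, and the antibodies differed. In the EGR1 libraries the marker sums followed the labels. The summed coverage of 7 excitatory markers was 89.5 and 80.3 in the excitatory-labelled libraries against 18.2 and 26.7 in the inhibitory-labelled ones. That of 8 inhibitory markers was 7.95 and 5.63 against 32.6 and 41.4. Of the excitatory markers, 6 had an EGR1 difference above 0, and Camk2a lay below (6.94% and 7.55% against 5.65% and 9.31%). All 5 inhibitory markers tested in EGR1 lay below 0, with Gad1, Slc32a1 and Dlx2 tested only through the inhibitory-labelled libraries. Dlx1 had no EGR1 in any library. In the H3K27ac libraries the inhibitory markers summed to 41.8 and 46.4 in the excitatory-labelled libraries but to 1.19 and 0.961 in the inhibitory-labelled ones, where Slc32a1, Dlx1, Dlx2, Dlx5, Dlx6 and Lhx6 were at 0 in both. Slc17a7, the vesicular glutamate transporter of excitatory neurons, had H3K27ac over 7.89% and 7.26% of its window in the excitatory-labelled libraries and over 13.9% and 14.4% in the inhibitory-labelled ones. Gad1, which makes GABA, had H3K4me1 over 21.2% and 25.4% against 4.42% and 7.40% (limma, adjusted p = 0.0497), and Tbr1, an excitatory factor, had H3K4me3 over 0% and 12% against 34.3% and 35.9% (adjusted p = 0.0138). Not all markers went this way. In H3K4me3, 3 of the 6 excitatory markers tested had a difference above 0 (Neurod6, Emx1 and Camk2a) and 3 below, and 4 of the 8 inhibitory markers (Gad2, Dlx2, Dlx6 and Lhx6) were higher in the inhibitory-labelled libraries at an unadjusted p of 0.05, against 0 the other way. The 7 excitatory markers summed to 146.5 and 176.5 in H3K4me1 in the excitatory-labelled libraries against 110 and 105.1, and the inhibitory ones overlapped between the groups (122.5 and 178.2 against 109.9 and 129.8). In H3K27me3 the excitatory markers summed to 140.7 and 135.7 against 171 and 178.2, and the inhibitory ones to 219.7 and 206.1 against 229.6 and 234. Markers of other cells differed too, as 6 astrocyte markers summed in H3K27ac to 24.2 and 42 against 18.3 and 16.3, with Aqp4 at 0 in both inhibitory-labelled libraries. In H3K4me1 4 vascular markers summed to 42.3 and 59.4 against 29 and 22.1. Histone marks at some defining genes thus go against the labels, and the libraries are called excitatory-labelled and inhibitory-labelled throughout. The part of this in the results below was not tested.

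The libraries of an antibody also differed in their peaks. H3K27ac lists held 109536 to 268626 peaks, and 2.57% and 4.94% of the peaks of the excitatory-labelled libraries passed a q of 0.05, against 31.8% and 35.1% of those of the inhibitory-labelled ones. In H3K4me1 that share ran from 0.0087% to 9.61% and in H3K27me3 it was at most 0.0099%. The H3K27ac excitatory-labelled libraries overlapped each other less (Jaccard index 0.113) than each overlapped an EGR1 excitatory-labelled library (0.166 and 0.154). The H3K4me3 excitatory-labelled libraries shared more with an inhibitory-labelled library (0.334 and 0.332) than with each other (0.314).

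The value of a gene is the percent of its window that peaks cover in a library. The window is the gene body plus 5 kb on each side for H3K4me1, H3K27ac and H3K27me3, and the 2 kb around each of the ends of the gene for H3K4me3 and EGR1, because the annotation used here gives no strand. A difference is the excitatory-labelled minus the inhibitory-labelled mean in percentage points, after quantile normalization, from limma with Benjamini-Hochberg adjustment over all genes tested for that antibody. Values given per library are not normalized. No window holds part of another channel gene of the list, and 11 of the 36 hold part of some other coding gene, whose peaks cannot be told apart from those of the channel gene.

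**Figure D1:**
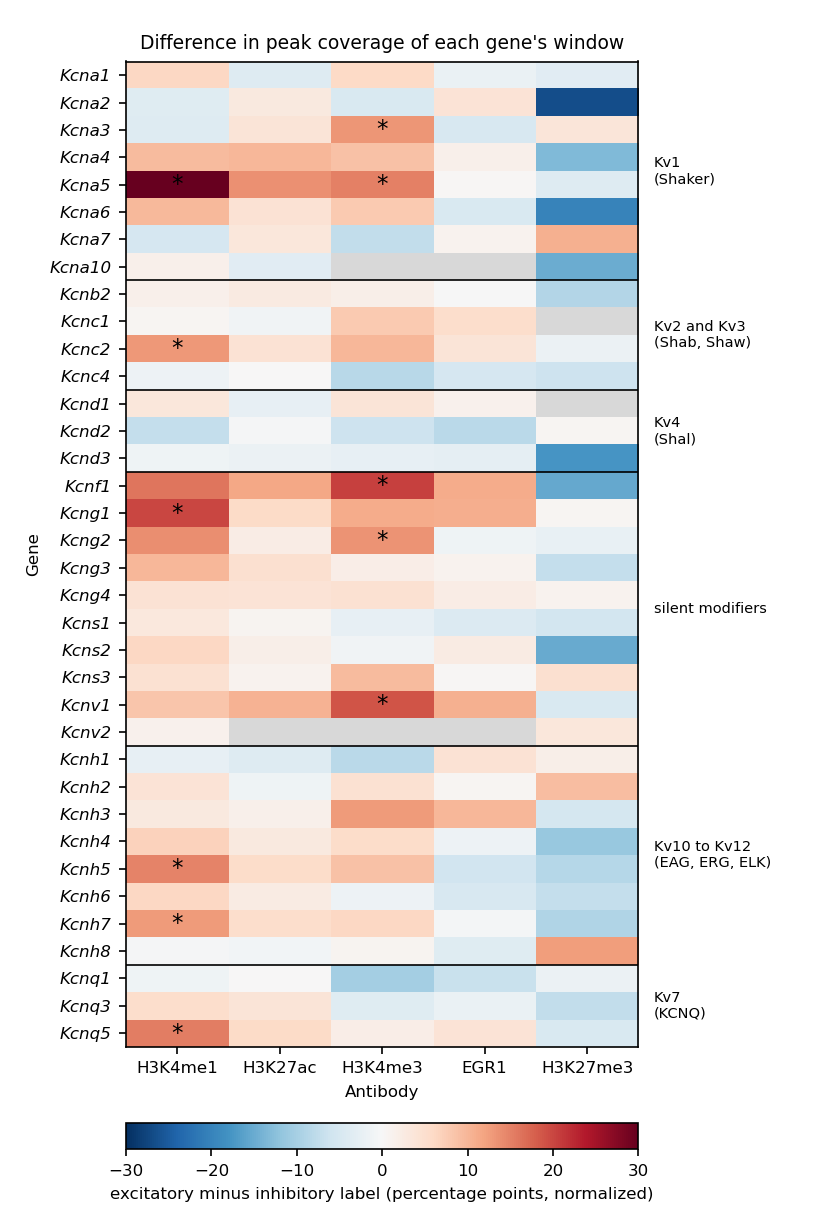
Each row is a channel gene, grouped by class, and each column an antibody. Colour is the normalized difference in percentage points (red, higher in excitatory-labelled libraries; blue, higher in inhibitory-labelled ones), asterisks mark an adjusted p under 0.05 and grey marks genes not tested. The asterisks are 6 for H3K4me1 and 5 for H3K4me3, all in red cells, and the darkest blue cell is Kcna2 in H3K27me3.

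H3K4me1 covered more of 6 of the 36 channel genes in the excitatory-labelled libraries, and of none in the inhibitory-labelled ones. These were Kcna5, Kcng1, Kcnh7, Kcnq5, Kcnh5 and Kcnc2, from 5 of the 6 classes. Over all 18017 genes tested, 4.06% were called in either direction, and 2.53% were called higher in the excitatory-labelled and 1.53% higher in the inhibitory-labelled libraries. The median difference of the 36 genes was 4.46 points and 27 were above 0, while the median over all genes was -0.34 points.

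Kcna5 encodes Kv1.5, a delayed rectifier of the Kv1 class, on chr6:126532551-126535555. H3K4me1 covered 25.9% and 39.3% of its window in the excitatory-labelled libraries and 2.26% and 0% in the inhibitory-labelled ones. Both excitatory-labelled libraries were far above both others, and the difference was 30.85 ± 3.22 points (SE; adjusted p = 0.0401). The longest H3K4me1 region there that both excitatory-labelled libraries and neither other library had was chr6:126530721-126532331, 1611 bases long and just outside the gene, with an authors' fold enrichment of 2.58 and 1.66.

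Kcng1 encodes a silent modifier (Kv6.1), on chr2:168260117-168281533. Its coverage was 22% and 30.7% in the excitatory-labelled libraries and 6.28% and 2.68% in the inhibitory-labelled ones, a difference of 20.07 ± 2.68 points (adjusted p = 0.0401). A region near its upper end, chr2:168279282-168282172, was marked in all 4 libraries. Another inside the gene, chr2:168272332-168277013, 4682 bases long, was marked in the excitatory-labelled ones alone.

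The other 4 are long genes. Kcnh7, an ERG channel gene of 490.9 kb (chr2:62693410-63184287), had 15.9% and 17.5% against 1.73% and 1.17%, a difference of 12.67 ± 1.81 points (adjusted p = 0.0401). Kcnq5, a Kv7 subunit of the M-current, spans 564.3 kb (chr1:21398399-21962650) and had 17.8% and 23.4% against 3.04% and 2.14%, a difference of 15.27 ± 2.21 points (adjusted p = 0.0401). In both, each excitatory-labelled library lay far above each inhibitory-labelled one. Kcnh5, an EAG channel gene (chr12:74897217-75177332), had 15.8% and 23.5% against 2.60% and 1.16%, a difference of 14.98 ± 2.50 points (adjusted p = 0.0454). Kcnc2, the Kv3.2 channel of fast-spiking cells (chr10:112269898-112466304), had 16.1% and 22.7% against 3.26% and 3.05%, a difference of 13.10 ± 2.42 points (adjusted p = 0.0494).

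Counted by region, 73 of the 189 merged H3K4me1 regions of Kcnq5 were present in both excitatory-labelled libraries and absent from both others, and 0 were the reverse. Kcnh7 had 51 such regions of 151, Kcnh5 34 of 108 and Kcnc2 16 of 74, again with 0 the other way. Over the channel genes together the share was 18.3% of 1512 regions, and over all coding genes 12.5% of 301047. At the gene ends the pattern was another one. Within 2 kb of the ends, Kcnq5 had 21.6% and 16.5% against 27.4% and 33.5%, Kcnh5 had 14.1% and 19.1% against 33.2% and 21.4%, and Kcnc2 had 13.7% and 34% against 26% and 21.1%. Their differences there were -13.36, -13.84 and -3.37 points (adjusted p = 0.357, 0.323 and 0.861), and Kcna5 was the only channel gene called at the ends. The median of the channel genes at the ends was -3.55 points, against -0.20 for all genes.

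By class, the 10 silent modifiers all had differences above 0 (median 7.27 points), and of the 3 Kv4 genes 1 did (median -1.19). Kcnf1, a silent modifier, missed the threshold with 20.3% and 31.2% against 9.68% and 4.80% (16.04 ± 3.304 points, adjusted p = 0.0580). Kcnd2, the main A-type channel of dendrites, lay the other way with 19.3% and 22.6% against 25.4% and 28.7% (-7.22 points, adjusted p = 0.168). The highest H3K4me1 coverage over the 4 libraries was that of Kcns1 (mean 30.7%) and Kcna3 (28.5%). Without normalization, both excitatory-labelled libraries lay above both others for 25 genes, where 39.3% of all genes did, and the reverse held for 2 genes, where 15.3% of all genes did.

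With 1 library left out, the lone library of its group is taken to vary like the other group, and the differences stayed near their size: 26.49 to 36.15 points for Kcna5, 17.54 to 23.59 for Kcng1, 12.07 to 13.71 for Kcnh7, 13.38 to 17.23 for Kcnq5, 11.71 to 18.26 for Kcnh5 and 10.55 to 15.72 for Kcnc2. Without excitatory-labelled replicate 1, or without either inhibitory-labelled replicate, no gene of the genome passed in such a fit, and limma's adjusted p of the 6 genes ran from 0.057 (Kcna5) to 0.279 (Kcnc2). Without excitatory-labelled replicate 2, 6 channel genes passed, with Kcng2 in place of Kcnc2, where 2.81% of all genes did, and the median of the 36 genes was 2.71 points.

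**Figure D2:**
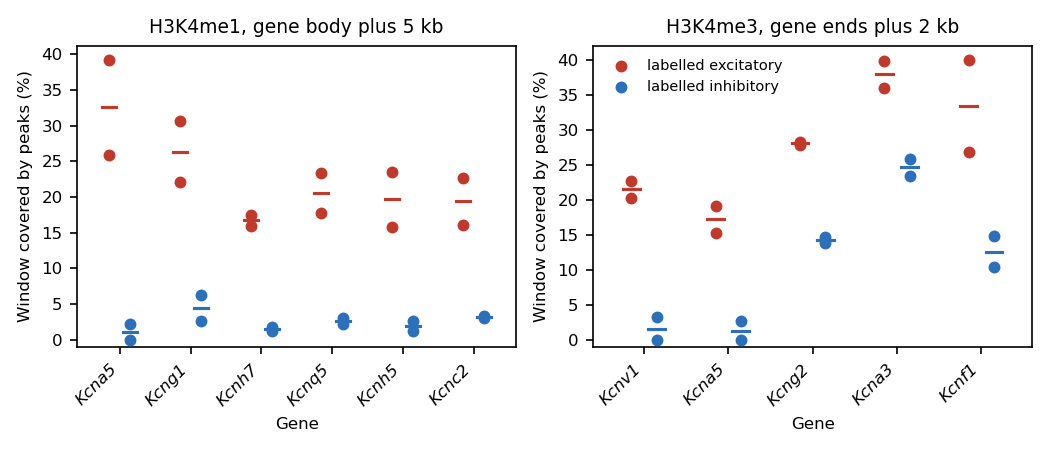
The percent of the window covered by peaks is on the vertical axis, for the genes called in H3K4me1 (left) and H3K4me3 (right). Points are libraries and bars the mean of 2, in red for excitatory-labelled and blue for inhibitory-labelled libraries. The groups overlap for none of these genes, and Kcna5 has the widest gap in H3K4me1, from 2.26% to 25.9%.

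H3K4me3 at the gene ends covered more of 5 of the 34 channel genes tested in the excitatory-labelled libraries, and of none in the inhibitory-labelled ones. Of all 15685 genes tested, 3.02% were called, and 1.8% were called higher in the excitatory-labelled and 1.22% in the inhibitory-labelled libraries. The 5 were 3 silent modifiers (Kcnv1, Kcng2 and Kcnf1) and 2 Kv1 genes (Kcna5 and Kcna3). The median difference was 4.63 points over the 34 genes and -0.13 over all genes. Kcnv2, a silent modifier known from the retina, had no H3K4me3 at its ends in any library, and Kcna10 had some in 1 library only, so neither was tested.

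The annotated starts of Kcna5, Kcna3 and Kcnf1 are in the RefSeq promoter table, and the 250 bases before each are printed because the H3K4me3 difference was measured around them. Sequences are from RefSeq GRCm38.p6, 5′ to 3′ on the strand of the gene, in lower case. Kcna5 is at chr6:126535556-126535805 on the minus strand, Kcna3 at chr3:107035912-107036161 on the plus strand and Kcnf1 at chr12:17176889-17177138 on the minus strand.
Kcna5: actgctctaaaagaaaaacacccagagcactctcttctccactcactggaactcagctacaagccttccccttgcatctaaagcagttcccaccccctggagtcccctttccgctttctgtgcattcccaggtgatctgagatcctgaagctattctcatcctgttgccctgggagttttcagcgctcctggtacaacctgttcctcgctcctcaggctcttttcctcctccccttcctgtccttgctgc
Kcna3: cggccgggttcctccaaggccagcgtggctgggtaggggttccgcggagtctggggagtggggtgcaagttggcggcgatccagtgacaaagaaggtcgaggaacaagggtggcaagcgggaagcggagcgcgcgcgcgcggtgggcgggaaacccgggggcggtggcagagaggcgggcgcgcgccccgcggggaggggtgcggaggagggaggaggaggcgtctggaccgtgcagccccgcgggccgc
Kcnf1: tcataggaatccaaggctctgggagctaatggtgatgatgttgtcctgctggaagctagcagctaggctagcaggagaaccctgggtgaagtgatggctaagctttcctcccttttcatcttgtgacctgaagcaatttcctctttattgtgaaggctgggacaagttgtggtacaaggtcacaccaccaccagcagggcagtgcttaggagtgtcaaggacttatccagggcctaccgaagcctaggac

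These stretches differ in base composition, with 74.4% G and C in Kcna3, 53.2% in Kcna5 and 51.2% in Kcnf1. H3K4me3 peaks covered 65.2% and 73.6% of the Kcna5 stretch in the excitatory-labelled libraries and 0% in both inhibitory-labelled ones. In Kcna3 the mark covered 90.8% and 68% against 100% in both, so the stretch before the start was marked in all 4 libraries. In Kcnf1 it covered 0% and 55.2% against 0% in both.

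Kcnv1, which encodes the silent subunit Kv8.1 (chr15:45096086-45115912), had H3K4me3 over 22.7% and 20.3% of its gene ends in the excitatory-labelled libraries and over 0% and 3.23% in the inhibitory-labelled ones. Kcna5 had 15.3% and 19.2% against 2.63% and 0%. Both genes were thus nearly bare of the mark in the inhibitory-labelled libraries, with differences of 18.89 ± 2.76 and 15.05 ± 2.21 points (adjusted p = 0.0247 for each). The Kcna5 region marked in the excitatory-labelled libraries alone was chr6:126534689-126535739, across the start of the gene.

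Kcng2 (Kv6.2, chr18:80294544-80364254) had 27.9% and 28.3% against 13.9% and 14.7%, a difference of 13.51 ± 2.14 points (adjusted p = 0.0311), and its replicates lay within 1 point of each other. Kcna3 (Kv1.3, chr3:107036162-107038129), a gene of 1.968 kb, had 36% and 39.9% against 23.4% and 25.9%, a difference of 13.34 ± 2.17 points (adjusted p = 0.0334). In its body, H3K4me3 covered 82.9% and 91.8% against 45.4% and 53.9%, while H3K4me1 covered 3.201% in both excitatory-labelled libraries against 72.5% and 53.2% in the others. Kcnf1 (Kv5.1, chr12:17172100-17176888) had 26.9% and 40.1% against 14.8% and 10.4%, a difference of 20.61 ± 3.83 points (adjusted p = 0.0442). One Kcnf1 region at the upper end, chr12:17175372-17177026, was marked in all 4 libraries, and chr12:17172315-17174909, towards the other end, in the excitatory-labelled ones alone.

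At an unadjusted p of 0.05, 14 channel genes were higher in excitatory-labelled libraries (8.91% of all genes were) and 3 higher in inhibitory-labelled ones (8.68% of all). The 3 were Kcnq1, a Kv7 channel of heart and epithelia (0% and 8.64% against 16.8% and 9.53%, -10.24 points), Kcnh1 (9.95% and 4.63% against 15.8% and 14.1%) and Kcna7 (3.64% and 8.49% against 11.1% and 12.6%). None of these passed the adjusted threshold (limma, 0.163, 0.245 and 0.134). The silent modifiers had the highest class median (9.41 points) and the Kv7 genes the lowest (-3.60). The highest levels over the 4 libraries were those of Kcnd3, a Kv4 gene (mean 39.1%), and Kcnh3, an ELK gene (32.7%).

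With 1 library left out, in fits where the lone library is again taken to vary like the other group, differences were 12.56 to 14.29 points for Kcna3, 12.49 to 14.64 for Kcng2, 13.28 to 16.43 for Kcna5, 16.64 to 21.30 for Kcnv1 and 15.35 to 26.24 for Kcnf1. Without excitatory-labelled replicate 2, or without either inhibitory-labelled replicate, no gene of the genome passed, and adjusted p-values of the 5 genes ran from 0.187 (Kcng2) to 0.506 (Kcnf1). Without excitatory-labelled replicate 1, 8 channel genes passed, the 5 among them, where 4.67% of all genes did. The median of the channel genes was 1.71 points without excitatory-labelled replicate 2, and 0.81 over gene bodies with 5 kb of flank. Without quantile normalization none passed (adjusted p from 0.0546 for Kcnv1 to 0.1402 for Kcnf1).

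H3K27ac gave no call among 16654 genes with limma (0% called), and so none among the 35 channel genes tested. At an unadjusted p of 0.05, 12 channel genes were higher in the excitatory-labelled libraries and 0 in the inhibitory-labelled ones, where 9.84% and 8.41% of all genes were. The median difference was 2.61 points, against -0.08 over all genes.

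The 4 widest differences were in genes bare of the mark in both inhibitory-labelled libraries. Kcna5 had 8.16% and 17.5% against 0% in both (13.75 ± 3.08 points), Kcnf1 14.3% and 8.35% against 0% (11.61 ± 3.15), and Kcnv1 7.04% and 12.9% against 0% (10.42 ± 2.02). Kcna4, the Kv1.4 channel that inactivates fast, had 9.06% and 10.2% against 0% (9.99 ± 1.38 points). Their adjusted p-values lay between 0.144 and 0.177. A gene at 0 in both inhibitory-labelled libraries entered the test only through the libraries where it was high, so that its direction was fixed by the filter. Such genes are also part of the counts above and of those with 1 library left out. Over the 25 channel genes covered in all 4 libraries the median was 1.70 points. Kcna4 is at chr2:107290589-107326804, and a region just inside its lower end, chr2:107290846-107292090, was present in the excitatory-labelled libraries alone. The H3K27me3 region chr2:107290729-107293160, present in the inhibitory-labelled libraries alone, spans it.

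Counted at gene ends, 31 and 33 of the 36 genes had an H3K27ac peak in the excitatory-labelled libraries and 22 and 26 in the inhibitory-labelled ones. Over all genes these shares were 62.7% and 73.8% against 60.8% and 61.9%. The mean difference of 8 genes gave an exact permutation p of 0.333 (two-sided), the smallest that 2 libraries against 2 allow. Kcna4, Kcna5, Kcnf1, Kcng1, Kcng4 and Kcnv1 had a peak in both excitatory-labelled libraries and in neither other, as 4.78% of all genes did, and no channel gene had the reverse, as 0.629% of all did. The highest H3K27ac coverage was that of Kcna2 (mean 12.3%), a main axonal Kv1 channel, and Kcns2 (11.4%), with groups that overlapped for both. All 3 Kv4 genes had differences below 0, from -2.37 to -0.36 points.

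In fits with 1 library left out, where the lone library is taken to vary like the other group, 11 channel genes passed without excitatory-labelled replicate 1 (10 of them higher in excitatory-labelled libraries; 5.55% of all genes passed) and 7 without replicate 2 (5.40% of all). None passed without either inhibitory-labelled replicate. Differences were 9.33 to 10.95 points for Kcna4, 9.84 to 18.88 for Kcna5, 8.39 to 13.37 for Kcnv1 and 7.29 to 17.05 for Kcnf1, whose lowest value was without excitatory-labelled replicate 1. The median of the channel genes was 1.48 points without excitatory-labelled replicate 2. The same libraries carry the inhibitory markers named above, and the part of that in these differences was not tested.

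Among all deposited peaks, EGR1 lay at the ends of most channel genes in every library: 33, 32, 30 and 33 of 36 (excitatory-labelled replicates 1 and 2, then inhibitory-labelled 1 and 2), where 59.4% to 66.1% of all genes had one. Among peaks of a -log10 q of at least 5, the numbers were 25, 25, 7 and 19, where 54.4%, 53.4%, 36.9% and 48.2% of all genes had one. No gene among 14310 passed the adjusted threshold with limma (0% called), and none of the 34 channel genes tested. Kcna10 and Kcnv2 had no EGR1 peak at an end in any library.

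At an unadjusted p of 0.05, 4 channel genes were higher in excitatory-labelled libraries (8.73% of all genes) and 6 higher in inhibitory-labelled ones (5.98% of all). Without quantile normalization these counts were 6 and 1. The excitatory-labelled EGR1 lists cover 48.8 and 50.2 Mb of the genome and the others 22.6 and 29.7 Mb. The median difference was 0.34 points, and -0.43 over all genes. It was 1.37 points without excitatory-labelled replicate 1, -1.23 without excitatory-labelled replicate 2, 1.03 without inhibitory-labelled replicate 2 and -1.58 with equal numbers of peaks, so that it has no settled direction.

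Of the 36 genes, 1 had an EGR1 peak at its ends in both excitatory-labelled libraries and in neither inhibitory-labelled one, as 3.19% of all genes did. This was Kcng1, with 12.1% and 15.4% covered in the excitatory-labelled libraries (10.95 ± 1.71 points, adjusted p = 0.110). It entered the test only through the libraries where it was high, as did Kcnq1 below. Its strongest peak, chr2:168260879-168261426, lay inside the gene near its lower end, with an authors' fold enrichment of 7.40 and 8.30. Kcnv1 had 24% and 20.5% against 6.76% and 10.1% (10.69 ± 2.12 points, adjusted p = 0.128). Kcnf1 had 20.2% and 27.7% against 12.4% and 6.39% (11.18 ± 3.57, adjusted p = 0.237), and Kcnh3 had 26.5% and 19% against 11.2% and 7.70% (10.02 ± 3.15, adjusted p = 0.236). In all 4 genes, both excitatory-labelled libraries lay above both others, which held for 47.4% of all genes. The rule that named these 4 required groups that do not overlap. With only peaks of a -log10 q of at least 5, 7 channel genes had one in both excitatory-labelled libraries and in neither other, as 5.36% of all genes did. These were Kcna7, Kcnb2, Kcnf1, Kcng1, Kcnh1, Kcnh3 and Kcnv1, and 0 had the reverse, as 0.19% of all genes did. The Kcng1 difference after quantile normalization was then -0.16 points, a sign that the deposited peaks do not share.

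Kcnq1 showed the reverse, as 0.49% of all genes did. It had 0% in both excitatory-labelled libraries against 3.24% and 7.50% (-6.61 ± 1.39 points, adjusted p = 0.129). It was 1 of 4 channel genes with both inhibitory-labelled libraries above both others, where 6.04% of all genes were. The peak behind it, chr7:143428351-143428950, lies within 2 kb past the gene's upper end, with an authors' fold enrichment of 5.13 and 7.53. Inside the gene 2 other EGR1 regions were present in all 4 libraries. The highest EGR1 levels at gene ends were those of Kcna1 (mean 25.5%), the Kv1.1 channel of axons, and Kcnd2 (20.6%). Kcnd2 had 16.8% and 20.3% against 20.9% and 24.3% (-8.01 ± 2.22 points, adjusted p = 0.191).

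The EGR1 motif was searched in the 250 bases before each start in the promoter table, as GCGTGGGCG and GCGGGGGCG on both strands, with no overlap counted with another motif. It was found in 1 of 30 promoters of 25 channel genes, that of Kcng3, and in 3.06% of 32851 promoters in the table. The Kcng3 stretch holds 2 matches, and the 150 bases outside the annotated gene, chr17:83631996-83632145 on the minus strand, are printed with the match they hold in capitals.
Kcng3: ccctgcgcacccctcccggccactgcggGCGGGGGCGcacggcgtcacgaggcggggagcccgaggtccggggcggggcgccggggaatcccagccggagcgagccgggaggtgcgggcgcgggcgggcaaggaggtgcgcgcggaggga

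EGR1 peaks covered 0%, 8.80%, 0% and 9.60% of the 250 bases before the Kcng3 start, in the order used above. The promoters of Kcna5 and Kcna3 hold no match, and EGR1 peaks covered 90.8%, 68.4%, 15.2% and 78.4% of the Kcna5 stretch and 92.8% to 100% of the Kcna3 stretch. In the Kcnf1 stretch, EGR1 covered 2%, 17.2%, 0% and 0%. A match describes letters and not a bound site, and 11 of the 36 genes have no entry.

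H3K27me3 covered less of most channel genes in the excitatory-labelled than in the inhibitory-labelled libraries, but no gene of 15438 passed the adjusted threshold with limma (0% called), and none of the 34 channel genes tested did. At an unadjusted p of 0.05, 14 channel genes were higher in inhibitory-labelled libraries (15.2% of all genes) and 3 in excitatory-labelled ones (13.7% of all). The median difference was -4.97 points, against 0.05 over all genes. Without normalization, both inhibitory-labelled libraries lay above both others for 25 genes, where 48.7% of all genes did. Kcnd1 had no H3K27me3 in any library, and Kcnc1 in 1 only.

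The widest gap was that of Kcna2, which encodes Kv1.2 (chr3:107090883-107115005). H3K27me3 covered 1.97% and 2.58% of its window in the excitatory-labelled libraries and 29.7% and 33.6% in the inhibitory-labelled ones, a difference of -26.58 ± 2.66 points (adjusted p = 0.0555). The gap lies away from the gene ends, where the difference was 0.74 points. Its longest region in the inhibitory-labelled libraries alone was chr3:107117122-107120078, outside the gene, with an authors' fold enrichment of 2.05 and 1.96.

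Kcna6 (Kv1.6, chr6:126708328-126740834) had 1.39% and 6.63% against 25.6% and 28.1% (-20.06 ± 3.08 points, adjusted p = 0.0555). Kcnd3 (Kv4.3, chr3:105451890-105674002) had 5.51% and 5.63% against 28.6% and 25% (-17.70 ± 2.49, adjusted p = 0.0555), with 18 regions in the inhibitory-labelled libraries alone and 1 in the excitatory-labelled ones alone. Kcnf1 had 9.72% and 17.7% against 29.9% and 35.2% (-15.29 ± 3.63, adjusted p = 0.0814). Kcna4 was bare in both excitatory-labelled libraries and covered over 17.1% and 14.3% in the others, through which alone it entered the test (-13.27 ± 1.90 points, adjusted p = 0.0555). The groups did not overlap for these 5 genes, but that was part of the rule that named all of them except Kcna4. Before normalization, 25 listed genes had both inhibitory-labelled libraries on top and 3 the reverse, where 48.7% and 14.2% of all genes did.

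Some of the genes called in H3K4me1 were among the 14. Kcnh7 had 0.290% and 1.08% of H3K27me3 against 13.1% and 12.3% (-9.02 points), Kcnh5 3.94% and 3.98% against 17.3% and 15.2% (-8.48), and Kcnq5 0.956% and 2.10% against 9.06% and 8.80% (-4.55). The adjusted p-values were 0.0635, 0.102 and 0.143. Kcnh7 had 28 regions in the inhibitory-labelled libraries alone and 0 in the others alone, and Kcnq5 had 24 and 1. Over the channel genes 14.3% of 1140 regions were of this kind, against 7.95% of 222840 over all genes.

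Kcnh8, an ELK channel gene (chr17:52602709-52979194), was the widest case in the other direction, with 11.3% and 12.7% against 3.56% and 2.03% (12.43 ± 2.09 points, adjusted p = 0.0562). It had 26 regions in the excitatory-labelled libraries alone and 1 in the others alone, the longest being chr17:52930153-52933684 inside the gene. Kcnh2, the ERG channel gene known from the heart, had 11.5% and 18.3% against 11.1% and 7.84% (9.28 ± 2.79 points, adjusted p = 0.1203). Kcnh1 was the third, at 1.184% and 1.363% against 2.11% and 0.499%, values that overlap before normalization. The highest H3K27me3 levels over the 4 libraries were those of Kcna7 (mean 36.2%), a channel of muscle, and Kcng4 (31.1%). Of the genes tested, the lowest was Kcnd2, widely expressed in neurons, at 0.0812% or less in each library.

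**Figure D3:**
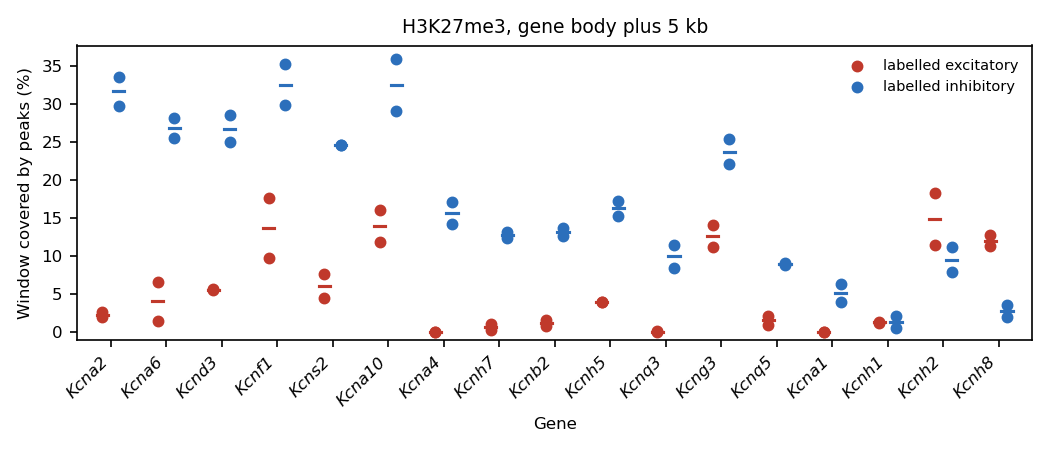
The percent of the window covered by H3K27me3 peaks is on the vertical axis for the 17 channel genes with an unadjusted p under 0.05, in order of the difference. Points are libraries and bars the mean of 2. Blue points (inhibitory-labelled) lie above red ones (excitatory-labelled) from Kcna2 to Kcna1, the points overlap for Kcnh1, and Kcnh2 and Kcnh8 have the red points above.

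The H3K27me3 result near the threshold moved with the choice of genes and scale. With the 10034 genes covered in all 4 libraries, 9 channel genes passed, 8 of them higher in inhibitory-labelled libraries, where 11.6% of all genes passed. On a log2 scale 5 passed, with 4 of them higher there, where 6.68% of all did. Leaving out any one library gave none.

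H3K4me3 and H3K27me3, whose overlap is known as bivalent chromatin, were found together at the same gene end in both libraries of a type for 19 of the 36 genes in the excitatory-labelled (52.8%) and 25 in the inhibitory-labelled libraries (69.4%). The shares over all coding genes were 15.9% and 20.4%. In 16 genes, among them Kcna3, Kcna6, Kcnf1, Kcnq5 and the silent modifiers Kcng1, Kcng2 and Kcng3, this held for both types. Kcnh6, Kcnv1 and Kcna5 had it in the excitatory-labelled libraries only, and 9 genes, among them Kcna4, Kcnb2, Kcnq3, Kcnh5 and Kcnh7, in the inhibitory-labelled ones only. Of all genes, 4.27% and 8.76% had it in one type only, in that order. The 8 genes with neither included Kcna1, Kcna2, Kcnc1 and Kcnd2. For H3K27me3 alone, 26 genes had a peak at an end in each excitatory-labelled library and 32 in each inhibitory-labelled one (exact permutation p = 0.333, two-sided, the smallest possible), where 40.8% and 41.4% against 54.3% and 47.3% of all genes did. With peaks of a -log10 p of at least 3 these numbers were 0 and 0 against 2 and 2. Of all genes, 0.878% and 0.670% against 1.68% and 1.25% had such a peak. The counts with both marks thus rest almost wholly on weaker H3K27me3 peaks. Peaks of 2 marks in sorted nuclei may come from different cells, and this was not tested.

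Of the Kv1 genes, 6 lie in 2 clusters, which were looked at after their values had been seen. Kcna3, Kcna2 and Kcna10 lie within 159.6 kb of chromosome 3. H3K27me3 covered 8.12% and 10.3% of that interval in the excitatory-labelled libraries and 30.1% and 30.9% in the inhibitory-labelled ones. The gap was wide between Kcna2 and Kcna10, at 5.17% and 7.64% against 31.5% and 34.1%. The Kcna3 body was covered in all 4, at 70.2% and 69.4% against 100% and 53.6%. Across the whole interval H3K4me3 covered 4.77% and 10.1% against 6.51% and 9.30%, values that overlap.

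The other cluster, Kcna5, Kcna1 and Kcna6, spans 208.3 kb of chromosome 6. H3K27me3 covered 4.19% and 7.23% of it against 12.1% and 10.5%. The body of Kcna1, in the middle, had none in any library, while that of Kcna5 had 40% and 50.3% against 68.9% and 80.5%, and that of Kcna6 had 0.908% and 8.68% against 23.7% and 21.4%. Kcna5 thus carried H3K27me3 in every library, while its H3K4me1 was at 0 in its body in both inhibitory-labelled libraries and at 42% and 15.3% in the others.

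**Figure D4:**
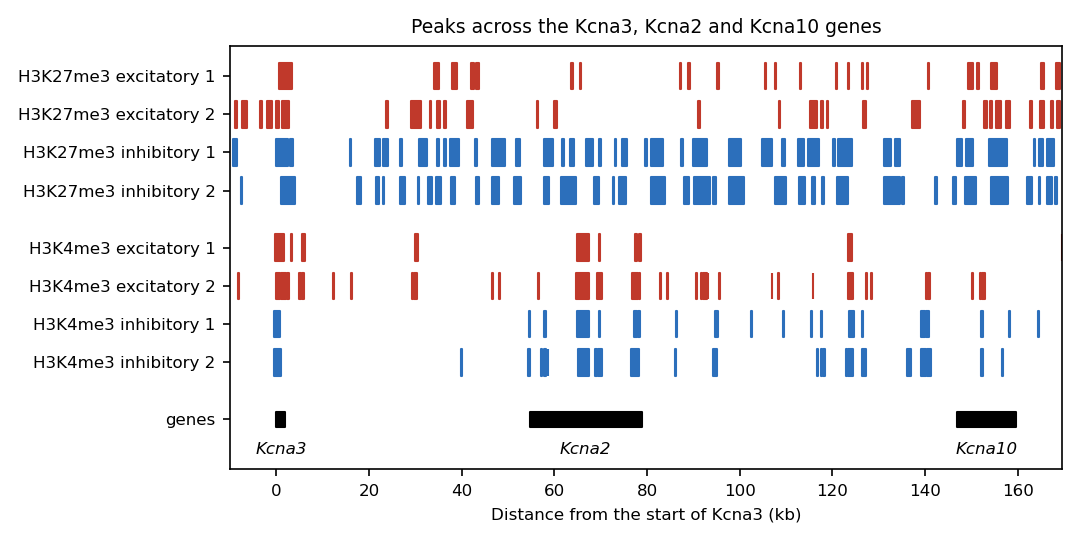
The horizontal axis is the distance in kb from the start of Kcna3, across Kcna2 to Kcna10. Each row is a library, with its peaks as bars (red, excitatory-labelled; blue, inhibitory-labelled), and the genes are in black below. The H3K27me3 rows hold more and longer bars in the inhibitory-labelled libraries (30.1% and 30.9% of the interval) than in the excitatory-labelled ones (8.12% and 10.3%).

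Read by gene across antibodies, 10 channel genes passed in H3K4me1 or H3K4me3, and Kcna5 passed in both. Kcnf1, called in H3K4me3, was among the 4 widest differences of every antibody, above 0 for H3K4me1, H3K27ac, H3K4me3 and EGR1 and below 0 for H3K27me3. Kcnv1 was among the widest in 3 of them. The rule behind these rankings required groups that do not overlap. Both genes were bare of H3K27ac in the inhibitory-labelled libraries, so their direction in that antibody was fixed by the filter. The comparisons of different antibodies use different libraries, and the label check above came out differently by antibody.

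Genes outside the list were described from lists of related channels. Of 13 auxiliary subunits tested in H3K4me1, Kcnip2, a Kv4 partner, was called higher in excitatory-labelled libraries (28.5% and 33.3% against 14.5% and 12.7%, 16.06 points, adjusted p = 0.0440), and Kcne1, a Kv7 partner, lower (2.95% and 3.49% against 15.7% and 12.2%, -13.39 points, adjusted p = 0.0401). Of 11 in H3K4me3, Dpp10, Kcnab2 and Kcnip2 were called higher and Dpp6 lower. Dpp10 and Dpp6, both Kv4 partners, thus went opposite ways: Dpp10 had 30.6% and 30.1% against 2.3% and 0% (29.40 points, adjusted p = 0.0125), and Dpp6 had 12.9% and 14.1% against 31.1% and 28.7% (-16.70 points, adjusted p = 0.0218). Of the 40 other potassium and HCN channels, Kcnma1 was called in H3K4me1 (higher), and in H3K4me3 Kcnj2 and Kcnn3 were called higher and Kcnk10 lower, of 33 tested. Median differences of this list were 0.21 points in H3K4me1 and -0.31 in H3K4me3.

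**Figure D5:**
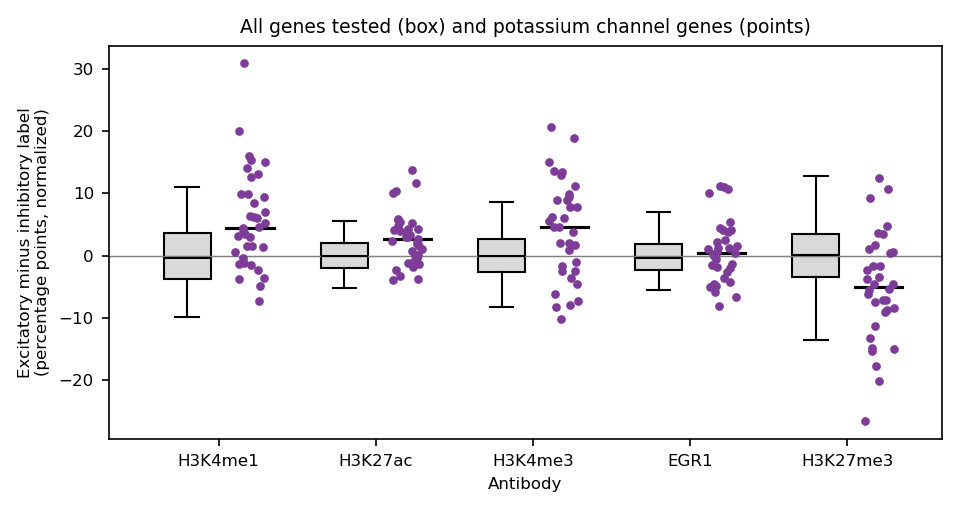
The vertical axis is the normalized difference in percentage points for each antibody. Boxes show the quartiles of all genes tested with whiskers from the 5th to the 95th percentile, purple points are the channel genes and black bars their medians (4.46, 2.61, 4.63, 0.34 and -4.97 points from left to right). The medians of all genes lie between -0.43 and 0.05 points.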

How the data were processed

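CUT&RUN nuclei and libraries were made with commercial kits (CUTANA and NEBNext Ultra II), per the labels' protocols. Tools listed in the submitters' processing notes, with no role given, are MACS2 2.2.5, SAMtools 1.12, Picard 2.25.0, Bowtie2 2.3.5, Trim Galore 0.5.0 and cutadapt 1.18, and the build is mm10. No source used here gives their settings or a control. Each library has its own list of peaks deposited by the authors, broad for H3K4me1 and H3K27me3 and narrow for the rest. Deposited columns are a fold enrichment (ratio), p and q as -log10 values and an integer score. Fold is quoted as the authors' value, and score entered nothing. The lists reach an unadjusted p of 0.0989 to 0.0999 (broad), 0.0483 to 0.0498 (narrow histone) and 0.00481 to 0.00491 (EGR1), so many histone peaks are weak. EGR1 peak names carry replicate numbers other than the labels, which were followed.

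Percent of a window covered was put on common quantiles across the 4 libraries of an antibody and tested in limma 3.58.1 (R 4.3.3, eBayes with trend) for genes with a covered base in at least 2 libraries. All tests are two-sided with an adjusted threshold of 0.05. The fit was tested on simulated data. Regions are peaks of the 4 libraries merged. Alternatives were no normalization, other filters, windows, peak thresholds, equal peak numbers, a log2 scale (pseudocount 1), a replicate block and leaving out each library. Genes are named if called, if among the 4 widest non-overlapping differences or 2 highest levels of an antibody, or if bare in all 4 libraries; others named were chosen after their values were seen. The rule for the members names genes by family and uses no value, but the family and the lists were chosen with earlier results of these data known.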

Additional observations from a re-analysis of the deposited data

How the results depend on the processing

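Counts of channel genes called were 6 in H3K4me1, 0 in H3K27ac, 5 in H3K4me3, 0 in EGR1 and 0 in H3K27me3, and 23 of the 60 alternative counts differed by more than 1.5 times. In H3K4me1 the count was 0 with no filter on covered bases, 0 with peaks of a -log10 p of at least 3 (12 genes tested), 0 with equal numbers of top peaks and 1 at the gene ends, and it ran from 0 to 6 when a library was left out. In H3K4me3 it was 0 without quantile normalization, 0 with no filter, 0 on a log2 scale, 3 with genes covered in all 4 libraries, 3 with equal numbers of top peaks and 0 to 8 when a library was left out. H3K27ac ran from 0 to 11 when a library was left out. H3K27me3 gave 9 with genes covered in all 4 libraries (11.6% of all genes passed) and 5 on a log2 scale (6.68%). EGR1 gave 0 in every alternative run, though 2.63% of all 16408 genes passed over gene bodies with 5 kb of flank and 0.245% with no filter. Of all genes, 0.0925% passed in H3K4me1 with no filter, 0% with either peak choice and 1.31% at the gene ends. In H3K4me3 the share was 2.24% with genes covered in all 4 libraries and 2.64% with equal peak numbers. It was 0% there without normalization, with no filter and on a log2 scale. With peaks of a -log10 p of at least 3, only 2 channel genes could be tested in H3K27me3. The numbers of genes or libraries that enter a fit differ between some of these runs, and the cause of the changes was not tested.

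Replicate numbers were taken only to name the libraries, as the labels do not say whether same-numbered libraries were paired. After quantile normalization, same-numbered libraries deviated together with correlations of 0.06, 0.01, 0.05, -0.02 and 0.03 (H3K4me1, H3K27ac, H3K4me3, EGR1 and H3K27me3). That step takes out shifts of a whole library, so these values cannot settle the pairing. With the replicate block, 0 channel genes were called in H3K4me1, 11 in H3K27ac (7.98% of all genes), 10 in H3K4me3 (7.95% of all), 0 in EGR1 and 0 in H3K27me3.

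Of the single genes named by the rule, 5 differences changed sign. In H3K4me1 at the gene ends, Kcnc2 was at -3.37, Kcnh5 at -13.84 and Kcnq5 at -13.36 points. Kcng1 in EGR1 was at -0.16 points after normalization with peaks of a -log10 q of at least 5, while such peaks still lay in the excitatory-labelled libraries alone. Kcna2 in H3K27me3 was at 0.74 points at the gene ends. Another 80 gene values lost the threshold, 17 passed it and 170 kept their side of it. The difference in the number of genes with a peak at a gene end changed sign in H3K4me1 with peaks of a -log10 p of at least 3 (-2.5 genes) and the same number of peaks (-6), and in EGR1 with the same number of peaks (-2), at start sites only (-0.5, 25 genes with a listed start) and when a library was left out (-0.5 to 2.5). That leave-one-out was added after the data were seen. The medians of the channel genes were counted as moved, by more than the spread between replicates, in 28 of 60 alternatives. The 28 include the log2 run of each antibody, counted as moved whatever its value because its scale cannot be compared with points. Besides those given with the results, the medians were 7.09 points in H3K4me1, 3.13 in EGR1 and -8.25 in H3K27me3 without quantile normalization. With peaks of a -log10 p of at least 3 they were 0.83 in H3K4me1 and 1.22 in H3K27ac. Since depth is unknown, weak coverage cannot be told apart from low depth. Without normalization the median of all genes was 1.85 points in H3K4me1, 2.35 in EGR1, -2.06 in H3K27me3, 0.28 in H3K4me3 and -0.088 in H3K27ac. H3K4me1 calls over all genes went from 456 higher and 276 lower to 1043 and 168. The part of total coverage in these changes was not tested.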

Other observations

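Channel genes differ in length from 1.968 kb (Kcna3) to 564.3 kb (Kcnq5), and a window of fixed flanks samples them unequally. Across the genes tested, H3K27me3 coverage averaged over the 4 libraries fell in rank with gene length (Spearman's rho -0.597 over 34 genes), and H3K4me1 less so (-0.333 over 36 genes). The difference between the labelled types had a Spearman's rho with length of -0.026 in H3K4me1, -0.084 in H3K27ac, -0.312 in H3K4me3, -0.22 in EGR1 and 0.01 in H3K27me3. Genes are not independent replicates, and these values describe the list only. The 11 genes of at least 100 kb had a median H3K4me3 difference of 0.92 points and the 23 shorter ones 6.06 points. In H3K4me1 the medians were 1.61 and 4.52 points, over 11 and 25 genes.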
